A study of Homo sapiens with 4 samples.

Results

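The genes described here make long noncoding RNAs or carry microRNAs in their transcripts. They are 9 loci: NEAT1, MALAT1, SNHG1, GAS5, MIR205HG, MIR34AHG, VMP1 with MIR21, MIR22HG and MIR17HG. Every deposited region that overlapped the hg19 span of one of these genes, widened by 3 kb on each side, was taken. This gave 16 of 11604 regions of 53BP1, 25 of 62530 of RNA polymerase II (Pol II) S5p and 22 of 54600 of Pol II S2p, and 8 of the 9 genes had at least 1 region. The cells were MCF10A, an immortalised, non-tumour line of human breast epithelium, grown in normal conditions without a treatment or a genetic change named in the labels. Chromatin was precipitated with antibodies to 53BP1, which is recruited to chromatin around DNA breaks and also binds p53, and to Pol II carrying a phosphate on serine 5 (S5p) or serine 2 (S2p) of its tail. The series also has an input sample, which was not analysed here. Each ChIP had 1 library, so nothing below can be set against a spread between replicates, and all values are descriptions without a test. The lists hold no expression values, so the epithelial identity of the cells was not checked against marker genes.

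NEAT1 and MALAT1 are abundant nuclear RNAs. NEAT1 is the scaffold of paraspeckles, and MALAT1 is held in nuclear speckles. GAS5 and SNHG1 are host genes of small nucleolar RNAs, whose exons are spliced into RNAs that code for no protein. The other genes are hosts of microRNAs, which are cut from the nuclear transcript and pair through their seed with target messenger RNAs. S5p is the form of Pol II found near transcription starts, and S2p builds up along genes and past their polyadenylation sites. The title of the series concerns 53BP1 and transcription by the p53 family. MIR34AHG, the host of miR-34a, is a well-known p53 target, and miR-205 is known in basal epithelium together with p63, a relative of p53.

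The mature microRNAs from these hosts are shown because they are what the microRNA host genes deliver. They come from RefSeq (GRCh38.p14) and are written 5′ to 3′ with the seed, bases 2 to 8, in capitals. The 4 arms from hosts other than MIR17HG have seeds that differ from each other.
miR-205-5p: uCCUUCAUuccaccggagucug
miR-34a-5p: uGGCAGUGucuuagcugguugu
miR-21-5p: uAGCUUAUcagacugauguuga
miR-22-3p: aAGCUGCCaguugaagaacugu
MIR17HG carries a cluster. Of the 6 arms of the cluster shown, miR-17 and miR-20a share the seed AAAGUGC, and miR-19a and miR-19b share GUGCAAA.
miR-17-5p: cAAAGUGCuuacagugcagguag
miR-20a-5p: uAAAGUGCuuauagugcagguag
miR-18a-5p: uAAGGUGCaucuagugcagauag
miR-19a-3p: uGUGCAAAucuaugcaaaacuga
miR-19b-3p: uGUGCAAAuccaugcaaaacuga
miR-92a-3p: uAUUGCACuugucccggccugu

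Strength is given below as the authors' fold enrichment and as the rank of that fold within the same list, since folds of different lists are not on the same scale. Positions are in hg19 and 1-based. A distance from a gene start or a far end is counted in the direction of transcription from the end of the gene span. Most of the genes carried very strong Pol II regions. Of the 22 member S2p regions, 7 were in the strongest 1% of the S2p list by fold, as were 6 of 25 in the S5p list and 5 of 16 in the 53BP1 list. The weak Pol II regions came mainly from the long VMP1 and MIR34AHG genes, which together held 17 of the 25 S5p regions and 16 of the 22 S2p regions. These 2 genes covered most of the bases searched.

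**Figure D1:**
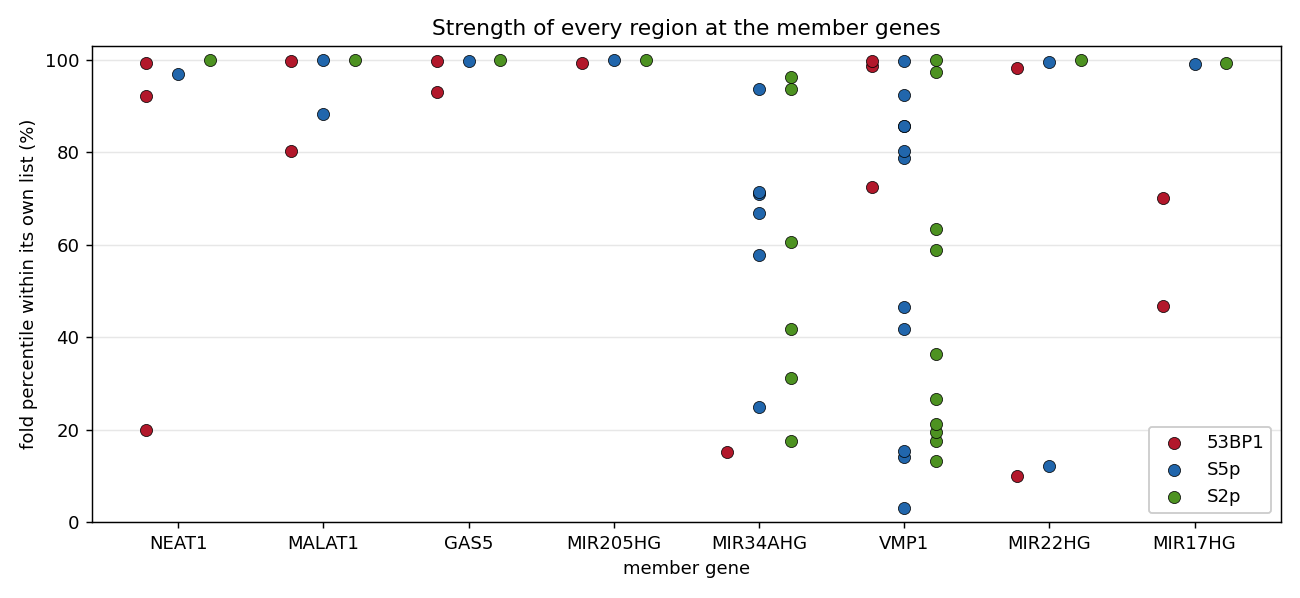
Fold percentile within its own list (vertical axis, percent) of every region at the 8 member genes with regions (horizontal axis), with 1 point per region and colours for the 3 lists. The strongest S5p and S2p regions of NEAT1, MALAT1, GAS5, MIR205HG, VMP1, MIR22HG and MIR17HG lie near the top, while MIR34AHG stays below them and its only 53BP1 region ranks 9833 of 11604.

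All 16 member regions of 53BP1 met both an S5p and an S2p region. In the whole 53BP1 list, 97.6% met S5p and 78.9% met S2p, so the first count is near its background. Seen from Pol II, 9 of 25 member S5p regions met 53BP1, against 15.2% of the S5p list, and 9 of 22 member S2p regions met it, against 13.9% of the S2p list. Member Pol II regions were wider than those of their lists, with medians of 3665 against 970.0 bp for S5p and 2219.5 against 1098 bp for S2p, and a wider region has more room for a 1 bp overlap. With 50% of the S5p region required to be covered by 53BP1, 1 of the 25 was counted (4%). The share of the whole S5p list under that rule was not computed. S5p and S2p regions met each other at 17 of 25 and 17 of 22, against 60.2% and 54.9% of their lists.

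The summits of the 53BP1 regions fell into separate places along these genes. A summit, the position of highest signal in a region as deposited, was called near another when the distance was at most 1000 bp. Every deposited region has 1 summit, so the classes sort summits and not stretches free of the other mark. The 53BP1 region of MIR205HG, counted near S2p, also spanned the S5p summit. At 8 of the 16 regions the 53BP1 summit was 3 to 221 bp from an S5p summit and at least 4655 bp from any S2p summit. At 7 others it was 2 to 709 bp from an S2p summit and at least 1852 bp from any S5p summit. The remaining region, upstream of NEAT1, was near neither, and no region was near both. In the whole 53BP1 list, 53.7% of regions were near both kinds of summit, 29.5% near S5p but not S2p, and 6.05% near S2p but not S5p. Near neither were 1254 of the 11604. Where a member 53BP1 region lay, the summits of the S5p and S2p regions it met were 4824 to 11236 bp apart. At a limit of 1000 bp no 53BP1 summit can be near both summits of such a pair. For the regions met, the lack of member regions near both was thus set by this spacing. The list shares near both are therefore not a like comparison. Near was called on the nearest summit of any region, however, also of one not met. Past MIR22HG the 53BP1 summit was 589 bp from S2p and 1852 bp from the S5p summit of a region it did not meet. With near set at 2000 bp it was near both. Closer pairs of Pol II summits also occurred at these genes. Those 29 bp apart at MIR34AHG and 11 bp apart inside VMP1 were in regions that met no 53BP1. The pairs 2441 bp apart at MIR22HG and 4665 bp apart at MIR34AHG each included a region that met 53BP1. Among the 1093 regions of 53BP1 that lay on the strongest 1% of S2p regions, where 14 of the 16 member regions lay, the share near S2p but not S5p was 23.5%. In that set 27.6% were near S5p but not S2p and 13.1% near both. The largest class there, 391 of the 1093, was near neither. The widening matters here: without it 2 of the 7 regions would have been counted, since the others lie past the far ends of the genes. With near set at 500 bp, 4 of the 7 were counted, and no share of the whole list was computed at that distance. Of the 14 member regions on the strongest 1% of S2p, 7 were near S2p but not S5p, 6 near S5p but not S2p and 0 near both.

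**Figure D2:**
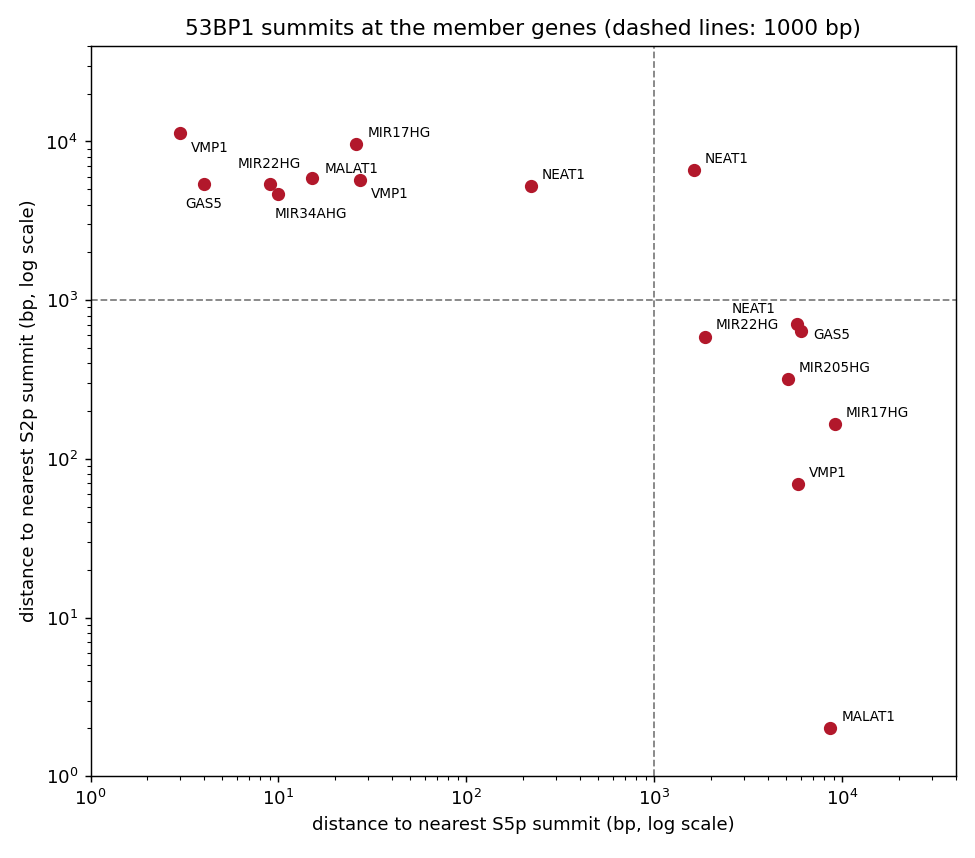
Each of the 16 member 53BP1 summits by its distance to the nearest S5p summit (horizontal axis, bp, log scale) and to the nearest S2p summit (vertical axis, bp, log scale), with dashed lines at 1000 bp. The upper left quadrant holds 8 summits, the lower right 7, the upper right 1 (NEAT1), and the lower left is empty.

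The 2 kinds of 53BP1 region differed in shape at most of these genes. The 8 near S5p were 592 to 1731 bp wide (median 932 bp) with folds of 4.10 to 42.0, and the 7 near S2p were 506 to 8457 bp wide (median 3673 bp) with folds of 3.78 to 46.7. Of the 6 genes with both kinds, the fold was higher near S5p at 5, with VMP1 the exception, and the region near S2p was the wider at 4 (NEAT1, MALAT1, GAS5 and VMP1). On the strongest 1% of S2p regions as a whole, the corresponding median widths were 882 bp near S5p and 964 bp near S2p. The median folds there were 11.8 near S5p and 5.62 near S2p, so the higher fold near S5p was also that of the comparison set. The widest and the strongest of the 702 regions of the whole list that were near S2p but not S5p were both at these genes, at MIR205HG (8457 bp) and beyond MIR21 (fold 46.7), a remark made after their values were seen.

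All 7 member S2p regions in the strongest 1% had a 53BP1 summit within 1000 bp of the S2p summit, against 66.7% of the strongest 1% of the list. Of these, 6 met at least 2 regions of 53BP1, against 54.6%. Of the 6 member S5p regions in the strongest 1%, 5 had a 53BP1 summit within 1000 bp of the S5p summit, against 99.4% of the strongest 1% of S5p. The exception was MIR205HG. At least 2 regions of 53BP1 were met by 5 of these 6, against 37.3%. A wider Pol II region has more room for 2 of them. Widths in the strongest 1% of S5p or S2p were not compared with those of the member regions.

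**Figure D3:**
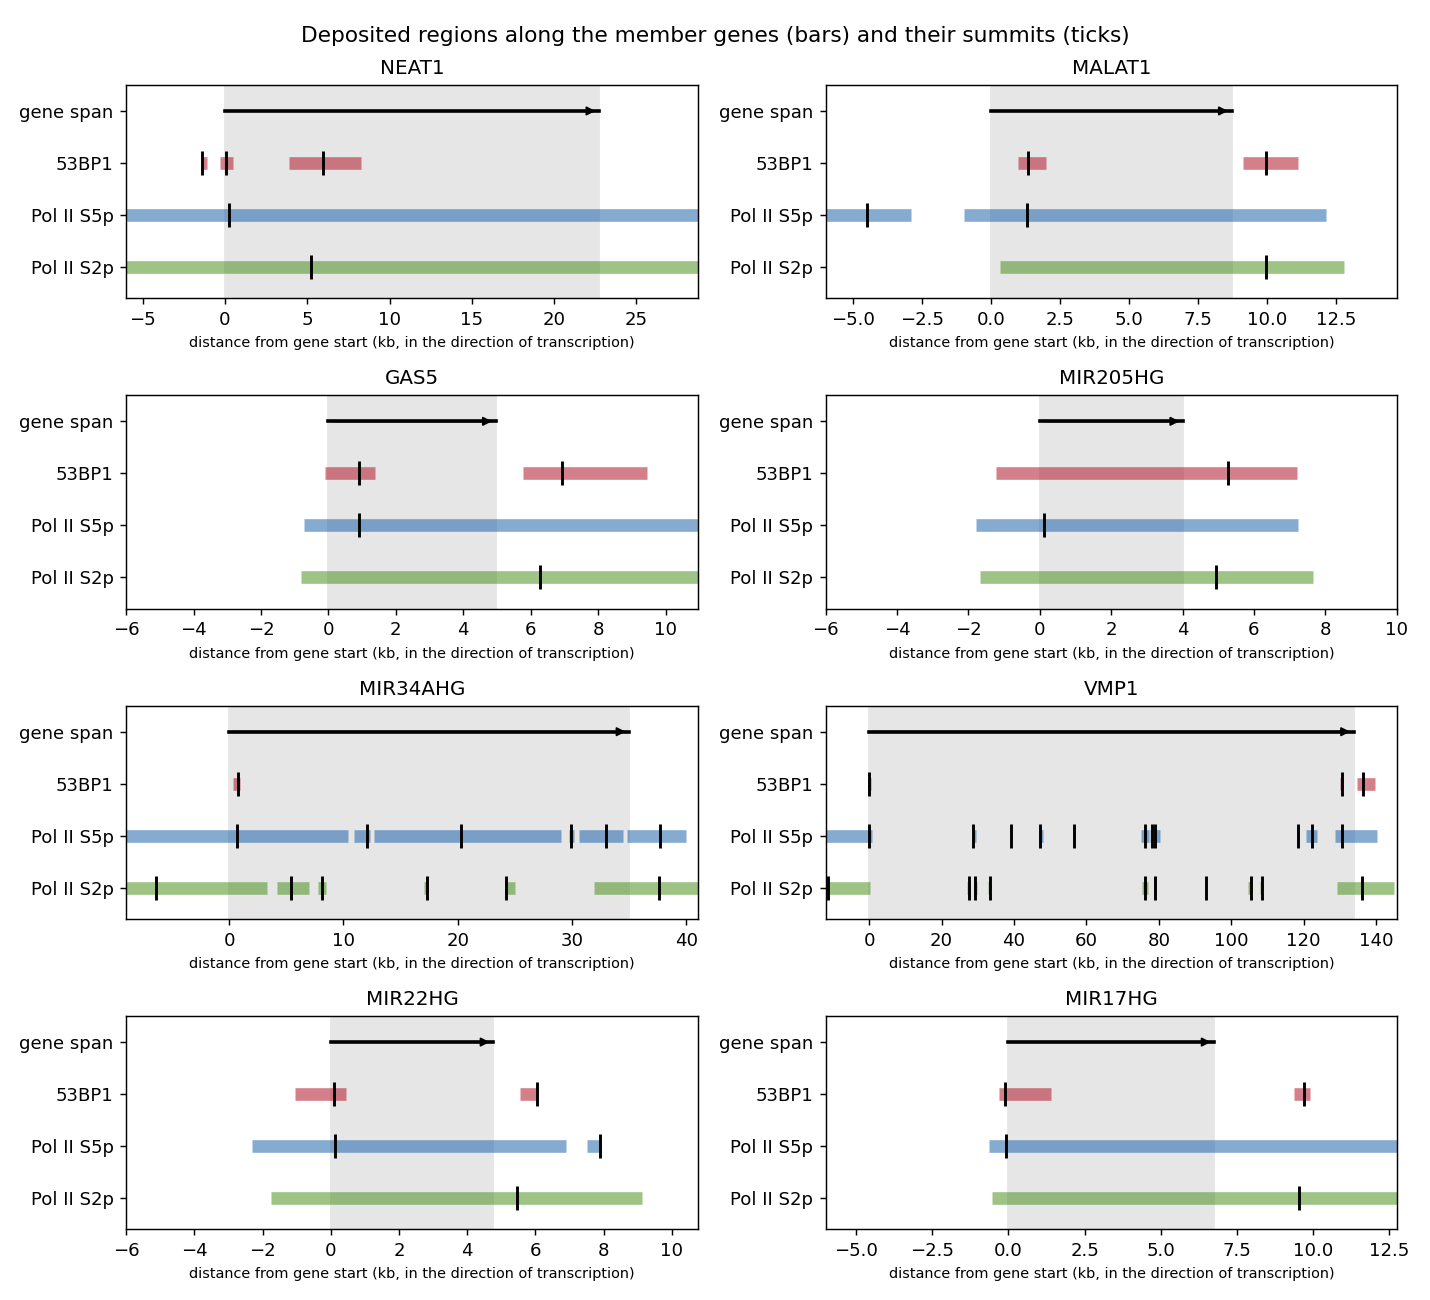
Regions of the 3 lists (bars) and their summits (ticks) along the 8 member genes, by distance from the gene start in kb in the direction of transcription, with the gene span in grey and bars cut at the panel edges. S5p summits sit near the start at NEAT1, GAS5, MIR205HG, MIR34AHG, VMP1, MIR22HG and MIR17HG. S2p summits sit past the far end at MALAT1, GAS5, MIR205HG, MIR22HG, MIR17HG and VMP1, and 53BP1 has a region beside each of these S2p summits. MIR34AHG also has an S2p summit past its far end, in a region that met no 53BP1.

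NEAT1 (chr11:65190269-65213011) lay inside very wide Pol II regions. Its S5p region spanned 48107 bp (chr11:65177642-65225748, fold 48.7, rank 1898) and its S2p region 61267 bp (chr11:65170817-65232083, fold 124, rank 33), each covering the whole widened span. The S5p summit was 255 bp downstream of the start, and the S2p summit was 5255 bp downstream, well before the far end of the longer NEAT1 transcript. NEAT1 is also made as a shorter transcript with the same start. The 53BP1 region at the start (chr11:65189992-65190756) had a fold of 27.2 and rank 77, with its summit 34 bp downstream of the start. A second 53BP1 region inside the gene (chr11:65194182-65198552) was 4371 bp wide, the 19th widest of the list, with a fold of 11.8 and a summit 709 bp from that of S2p. The weak region upstream (chr11:65188867-65189196, fold 4.32, rank 9293) had its summit 1369 bp before the start. 53BP1 at NEAT1 was thus found at the start and in the front part of the gene, and no 53BP1 region lay in its remaining part.

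MALAT1 (chr11:65265233-65273940) had among the strongest regions of both Pol II lists. Its S5p region (chr11:65264257-65277346) was 13090 bp wide with a fold of 156 and rank 61, and its S2p region (chr11:65265543-65278014) was 12472 bp wide with a fold of 152 and rank 18. The S5p summit was 1307 bp downstream of the start of the span, and the 53BP1 summit of the region there (chr11:65266198-65267209, fold 35.6, rank 37) was 15 bp from it. Past the other end, the S2p summit lay 1240 bp beyond the far end and a broader 53BP1 region (chr11:65274338-65276347, 2010 bp, fold 9.04, rank 2279) had its summit 2 bp from the S2p summit. The 2 places were 8640 bp apart by the Pol II summits. A separate S5p region upstream (chr11:65258662-65262326, fold 19.7, rank 7362) met no 53BP1.

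The RefSeq promoter table lists 2 starts for MALAT1, 1307 bp apart, and the S5p summit was as far from the start of the span. Because the table is in another build and the ends of the span need not match it to the base, this is a match of distances and not of positions. Both windows, 250 bases before to 50 after each start, are shown because the S5p and 53BP1 summits lay more than 1 kb inside the span. Capitals mark TATAAA and GGGCGG on either strand. The upstream window holds 5 matches to GGGCGG and none to TATAAA. The downstream window holds TATAAA, 30 bases before the start, and no GGGCGG. All coordinates of promoters are GRCh38.p14 and cannot be read against the hg19 positions.
MALAT1 upstream start, chr11:65497488-65497787, plus strand: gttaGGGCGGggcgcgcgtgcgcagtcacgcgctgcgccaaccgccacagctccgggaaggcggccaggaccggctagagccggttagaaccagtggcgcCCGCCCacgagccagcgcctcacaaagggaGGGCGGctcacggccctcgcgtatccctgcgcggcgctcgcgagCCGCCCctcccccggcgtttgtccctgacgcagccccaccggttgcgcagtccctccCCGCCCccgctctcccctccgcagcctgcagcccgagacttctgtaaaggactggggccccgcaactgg
MALAT1 downstream start, chr11:65498795-65499094, plus strand: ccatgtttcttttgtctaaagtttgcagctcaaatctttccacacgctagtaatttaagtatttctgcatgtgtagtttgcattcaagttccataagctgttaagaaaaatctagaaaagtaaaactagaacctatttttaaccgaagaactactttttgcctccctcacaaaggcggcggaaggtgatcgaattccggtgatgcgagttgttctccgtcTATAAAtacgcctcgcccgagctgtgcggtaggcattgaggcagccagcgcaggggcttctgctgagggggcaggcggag

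GAS5 (chr1:173833039-173838000), a host of several snoRNAs whose RNA builds up when growth stops, had the S2p region of rank 5 by fold in the whole list. That region (chr1:173810364-173838812) was 28449 bp wide with a fold of 209, and the S5p region (chr1:173814493-173838736) was 24244 bp wide with a fold of 141 and rank 100 by fold, or 3 by the −log10 q-value. The S5p summit was 908 bp inside the span and the 53BP1 summit there was 4 bp from it (chr1:173836632-173838089, fold 42.0, rank 27). The span given for GAS5 is 4962 bp long, against 5145 bp in RefSeq, so distances from its ends hold relative to the span only. RefSeq places the start of ZBTB37, on the opposite strand, inside GAS5, so signal at this end cannot be told apart between the 2 genes. Beyond the far end, 53BP1 had a region of 3673 bp (chr1:173828557-173832229, fold 12.3, rank 802, the 27th widest), with its summit 1957 bp past the gene and 636 bp from the S2p summit, which lay 1321 bp past it.

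SNHG1 (chr11:62619460-62623386), the other snoRNA host, had no row of any list in its widened span. The nearest rows of the 3 lists ended at 62606256 and began at 62651297. SNHG1 was therefore not analysed here, and the lack of a row is not read as a lack of Pol II or 53BP1.

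MIR205HG (chr1:209602168-209606183), the host of miR-205, was covered from end to end by all 3 lists. Its S2p region (chr1:209600480-209609829, 9350 bp) had a fold of 165 with rank 11, and rank 1 in the S2p list by the −log10 q-value. Its S5p region (chr1:209600377-209609401, 9025 bp) had a fold of 160 with rank 54. 53BP1 formed a single region of 8457 bp (chr1:209600931-209609387, fold 26.7, rank 80), the third widest of 11604, against a median width of 561 bp. It covered 82.4% of the widened span, where the other 7 genes with regions had 1.44 to 33.3%. This contrast depended on the widening. With 10 kb each side MIR205HG had 35.2% and GAS5, the next, 26.2%, and without widening 100% and 27.6%. Its summit lay 1251 bp past the far end and 319 bp from the S2p summit, but 5143 bp from the S5p summit, which was 123 bp downstream of the start. The deposited list gives 1 summit per region, so signal of 53BP1 at the start, inside the same region, has no summit of its own. The RefSeq window around the start of MIR205HG is shown because Pol II S5p had its summit there while 53BP1 did not. It holds no match to any of the motifs searched, and so no capitals.
MIR205HG start, chr1:209428570-209428869, plus strand: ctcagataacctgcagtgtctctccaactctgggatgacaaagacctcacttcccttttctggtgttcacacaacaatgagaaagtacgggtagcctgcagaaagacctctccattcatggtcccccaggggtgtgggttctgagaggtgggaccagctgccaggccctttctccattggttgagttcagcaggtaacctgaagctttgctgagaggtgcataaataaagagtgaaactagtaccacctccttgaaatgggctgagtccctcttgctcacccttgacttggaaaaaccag

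MIR34AHG (chr1:9208000-9243000) was the weakest of the genes with regions. Its S5p region at the start (chr1:9232627-9253282, 20656 bp) had a fold of 33.9 with rank 3927, and its only 53BP1 region (chr1:9242034-9242625) had a fold of 4.10 and rank 9833, with a −log10 q-value of 3.42. The 53BP1 summit was 10 bp from the S5p summit and 735 bp downstream of the start of the span. S5p regions covered 94.1% of the widened span in 6 pieces, with folds of 2.98 to 5.58 in the 5 other than the start region. The strongest of its 6 S2p regions (chr1:9239689-9255451, fold 18.9, rank 2052) had its summit 6358 bp upstream of the start, on the side towards which LNCTAM34A, a gene RefSeq places on the opposite strand, is transcribed. Past the far end, an S2p region (chr1:9200441-9211121, 10681 bp, fold 13.1, rank 3396) had its summit 2628 bp beyond the gene and 29 bp from that of a weak S5p region (fold 5.49), without a 53BP1 region. The MIR34AHG span thus carried 53BP1 at its start and, unlike the other 7 genes with regions, had no member 53BP1 region within 1000 bp of an S2p summit. RefSeq places the start of LNCTAM34A inside MIR34AHG, so signal in the span cannot be assigned to MIR34AHG alone. A 53BP1 summit outside the widened span lay 417 bp from the upstream S2p summit. With a −log10 q-value of at least 5 required, MIR34AHG had no 53BP1 region.

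VMP1 (chr17:57784863-57918698), an autophagy gene that codes for a membrane protein, contains MIR21 at its far end, and MIR21 is known to be transcribed also from a promoter of its own inside VMP1. The strongest regions were at the MIR21 end and not at the VMP1 start. At the VMP1 start, S5p had a fold of 29.7 (chr17:57767009-57785642, rank 4795) and S2p 23.8 (chr17:57761654-57785174, rank 1486). PTRH2 starts there on the opposite strand in RefSeq, and both regions lie mostly on its side. The 53BP1 region at this start (chr17:57784519-57785270) had a fold of 7.94 and rank 3186, with its summit 3 bp from that of S5p.

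At the MIR21 end, S5p had a fold of 139 (chr17:57913364-57925121, 11758 bp, rank 105) and S2p a fold of 171 (chr17:57914032-57929700, 15669 bp, rank 9). The S5p summit was 3345 bp before the end of the span, where MIR21 ends, and a 53BP1 region of 852 bp (chr17:57914839-57915690, fold 21.2, rank 163) had its summit 27 bp from it. The S2p summit was 2372 bp past the end of MIR21. There 53BP1 had its strongest region among all the genes described (chr17:57919648-57924437, 4790 bp, fold 46.7, rank 25, the 14th widest of the list), 69 bp away by the summits. This was the only gene of the 6 with both kinds of 53BP1 region at which the region near S2p had the higher fold. Between the 2 ends, 9 S5p regions had folds of 2.27 to 14.8 and 8 S2p regions had folds of 2.56 to 4.14, and none met 53BP1.

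**Figure D4:**
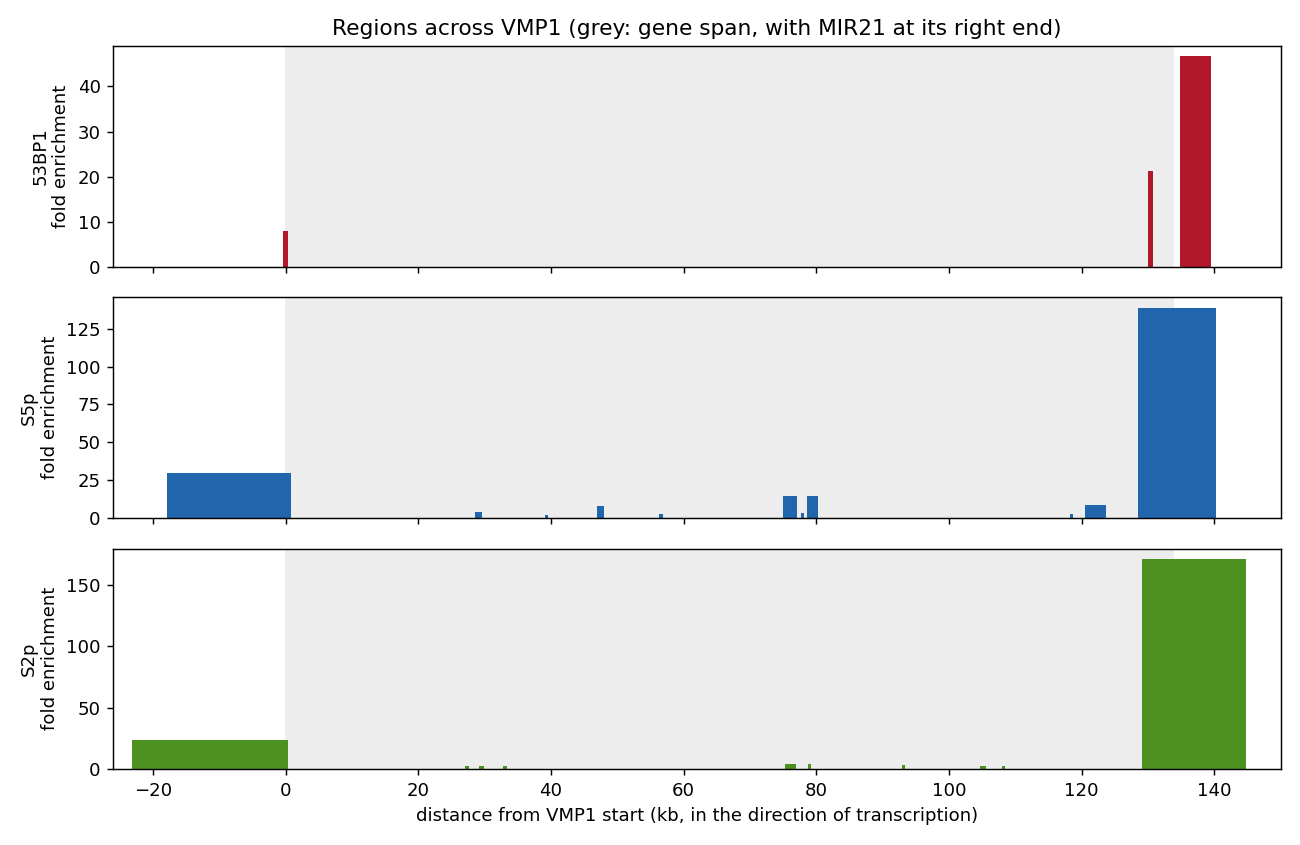
Authors' fold enrichment (vertical axis of each panel, separate scales) of the 53BP1, S5p and S2p regions across VMP1, by distance from its start in kb; the grey area is the gene span, bars are as wide as the regions, and bars under 0.5 kb are drawn at 0.5 kb. The MIR21 end has folds of 139 (S5p), 171 (S2p), 21.2 and 46.7 (53BP1), against 29.7, 23.8 and 7.94 at the VMP1 start.

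MIR22HG (chr17:1614798-1619566), the host of miR-22, repeated the order of summits, with S5p near the start and S2p past the far end. Its S5p region (chr17:1612653-1621872, 9220 bp, fold 94.1, rank 282) had a summit 112 bp downstream of the start, 9 bp from that of a strong 53BP1 region (chr17:1619134-1620610, fold 19.1, rank 208). WDR81 starts before MIR22HG on the opposite strand in RefSeq and TLCD2 starts beyond its far end, so signal at either end cannot be assigned to MIR22HG alone. The S2p summit (chr17:1610438-1621319, 10882 bp, fold 107, rank 63) lay 695 bp past the far end, and a weak 53BP1 region (chr17:1613498-1614003, fold 3.78, rank 10438, −log10 q-value 2.27) had its summit 589 bp from it. A short S5p region still farther out (chr17:1611633-1612039, fold 2.63) met no 53BP1.

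MIR17HG (chr13:92000074-92006833), the host of the miR-17 cluster and a known MYC target, had Pol II regions of about the same extent in both lists, chr13:91999427-92016174 for S5p (16748 bp, fold 75.2, rank 566) and chr13:91999519-92016425 for S2p (16907 bp, fold 51.2, rank 382). The S5p summit was 79 bp and the 53BP1 summit 105 bp before the start, in a 53BP1 region of modest strength (chr13:91999751-92001481, fold 7.73, rank 3458). The S2p summit was 2774 bp past the far end, and a 53BP1 region there (chr13:92009429-92009978, fold 5.73, rank 6184) had its summit 165 bp from it. 53BP1 was thus weaker at MIR17HG than at the other genes whose S2p region was in the strongest 1%, if each is judged by its strongest 53BP1 region.

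The RefSeq window around the MIR17HG start is shown because the S5p and 53BP1 summits lay within 105 bp of the start of the span. Capitals mark GGGCGG on either strand and, 43 bases before the start, the single match to the p53 half-site among the member windows.
MIR17HG start, chr13:91347437-91347736, plus strand: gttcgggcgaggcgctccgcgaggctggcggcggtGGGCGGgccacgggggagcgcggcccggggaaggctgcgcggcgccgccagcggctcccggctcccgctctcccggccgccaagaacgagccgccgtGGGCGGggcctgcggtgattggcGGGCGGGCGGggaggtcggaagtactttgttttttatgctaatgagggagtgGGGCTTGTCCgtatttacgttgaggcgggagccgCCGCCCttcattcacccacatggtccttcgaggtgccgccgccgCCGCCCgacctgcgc
Of the 9 genes, 8 had a RefSeq window, which made 9 windows with both MALAT1 starts. TATAAA was in 2 of the 9, against 11.5% of all 35116 windows, GGGCGG in 5 of 9 against 45%, and the p53 half-site in 1 of 9 against 6.63%. CACGTG and TGACTCA were in 0 of 9, against 7.26% and 4.95%. Both strands were searched, and overlapping matches were each counted. These are matches of letters in windows of 300 bases, and they say nothing of binding.

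In the order of the strongest S2p region by rank, the genes ran GAS5 (5), VMP1 with MIR21 (9), MIR205HG (11), MALAT1 (18), NEAT1 (33), MIR22HG (63), MIR17HG (382) and MIR34AHG (2052). By the strongest 53BP1 region the order was VMP1 with MIR21 (25), GAS5 (27), MALAT1 (37), NEAT1 (77), MIR205HG (80), MIR22HG (208), MIR17HG (3458) and MIR34AHG (9833). MIR22HG, MIR17HG and MIR34AHG thus came last in both orders. With 1 library per ChIP, neighbours in either order cannot be separated by an error.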

How the data were processed

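MCF10A chromatin was profiled by ChIP-seq for 53BP1, Pol II S5p and Pol II S2p, with 1 library each, and groups came from the sample labels. The deposited files are lists of enriched regions. Per the submitters' processing notes, the build was hg19 and bcl2fastq 2.20.0.422 was used. No label or file used here names the aligner, the peak caller, its control or any pooling of reads. Read depth is unknown. Each region has a fold enrichment over background, which is a ratio made by the authors, and a deposited −log10 p-value and −log10 q-value. Wider and more numerous regions can come from depth, so ranks were used within a list only.

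The autosomes (1 to 22) and X were used. A region belonged to a gene if at least 1 bp overlapped the span widened by 3 kb. The spans were given, and no hg19 annotation was used. For every gene but NEAT1 the span differed in length from the RefSeq gene, so distances from gene ends hold relative to the span. Strands came from the RefSeq promoter table (GRCh38.p14), and for NEAT1 from general knowledge. RefSeq served otherwise for sequences and for the names of neighbours. No position was converted. The rule for the text was to describe every member, with all its 53BP1 regions and the strongest, start-covering and widest Pol II regions. Members, lists and motifs were chosen with earlier results of these data known, and the 1000 bp distance and the classes of summits were chosen after seeing the regions. Overlap and distance scripts were tested on simulated data. Alternatives were other widenings, a −log10 q-value of at least 5, the upper 50% of each list, summit-based membership, 50% overlap, ranking by −log10 q-value and near distances of 500 and 2000 bp. The software was Python 3.11.15 with pandas 2.3.3, numpy 2.4.6, matplotlib 3.10.9 and scipy 1.17.1.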

Additional observations from a re-analysis of the deposited data

How the results depend on the processing

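Of 323 alternative values computed, 294 stayed within 1.5 times the value given (5 points for a percentile, the exact binomial 95% interval for a share). Of the 294, 213 were values of single genes, among them the coverage of 0 at SNHG1, and 81 were values over the genes together. The tally is thus no measure of how stable the results are. The interval served only as a tolerance, since regions of 1 library are not replicates. Without widening, the member 53BP1 regions numbered 10 and covered 6.65% of the spans in place of 10.3%, and the regions near an S2p but no S5p summit fell from 7 to 2, since 5 of these lie past the far ends. With 1 kb they were 6 and with 10 kb 8, against 8 and 9 near S5p but not S2p. With near taken as 500 bp the 7 became 4 and with 2000 bp 6, against 8 and 9 near S5p but not S2p. At a −log10 q-value of at least 5, S2p had 14 regions, of which 100% met S5p, and the median distance from a 53BP1 summit to S5p was 221 bp in place of 922.5 bp. The 3 member 53BP1 regions lost were those of MIR34AHG, upstream of NEAT1 and past MIR22HG. In the upper 50% by fold these values were 13 regions, 100% and 124 bp. Weak regions were left out by construction. Shares of the whole lists were not computed under any of the alternatives named here. Requiring 50% of the S5p region to be covered left 1 of 25 (4%) with 53BP1, since 53BP1 regions are narrower. No paired analysis was possible because a single library stood for every antibody. With depth unknown, a place without a 53BP1 region is a place where none was detected.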
